A study of Mus musculus with 3 samples.

Results

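Foxc1 and Foxc2 are related forkhead transcription factors, and the regions described here are the places near the ends of protein-coding genes where a Foxc1 antibody gave a peak and a Foxc2 antibody gave none. The regions were chosen by 3 criteria from the deposited peak lists: a Foxc1 peak on chromosomes 1 to 19, X or Y, no Foxc2 peak overlapping it by 1 bp or more, and a summit within 1 kb of either end of a RefSeq gene span (GRCm38, the assembly also called mm10). Of 5207 Foxc1 peaks, 451 met them. For comparison, 114 Foxc1 peaks at gene ends were overlapped by a Foxc2 peak, 1391 of 2878 Foxc2 peaks lay at gene ends with no Foxc1 peak, and 4329 Foxc1-only peaks lay farther than 1 kb from any gene end. Because presence in one list and absence from the other chose the members, those properties are descriptions and are not tested.

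Chromatin came from glomeruli, the filtering units of the kidney, of C57BL/6 mice aged 8 weeks, collected with magnetic beads. Chromatin immunoprecipitation and sequencing (ChIP-seq) used the antibody Foxc1 (D8A6, CST) in 1 library and Foxc2 (AF6989, R&D Systems) in 1 library; the library of input DNA was not analysed here. No genotype other than the strain and no treatment is given for any library. Whole glomeruli hold podocytes, mesangial cells and endothelium, the labels do not say how many animals were used, and peak lists carry no expression, so the cell type behind a peak was not tested. Depth is unknown, since the lists give no read counts. With 1 library per antibody, intervals and p-values cover counting error over peaks in these libraries and not the spread between animals.

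Forkhead factors bind DNA through a winged-helix domain that reads a short core, usually written TAAACA or, on the other strand, TGTTTA. Foxc1 and Foxc2 have closely similar forkhead domains and act in the development of kidney, eye and vessels, and podocytes of the adult glomerulus express both. A gene start carries the promoter, and the stop end is where the annotated transcript ends.

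Among Foxc1-only peaks with the summit in a promoter, 34 of 98 had a forkhead core within 50 bases of the summit. RefSeq promoter windows of 300 bases (250 before to 50 after a gene start, GRCm38.p6) held the summits of 98 of the 451 peaks. The 10 below are the peaks of highest fold enrichment with the longer forkhead site TGTTTAC, or its reverse complement GTAAACA, in the shown stretch, and are printed to show where the match lies when there is one. Each is read 5′ to 3′ on the strand of the gene, covers 30 bases on either side of the summit, and has the forkhead match in capitals. They were chosen after their sequences were seen. Rfx8 (fold 8.88) had the longer site 3 bases from the summit but is left out, because its stretch is clipped at the gene start.
Yipf4 (chr17:74489332-74489392, plus strand): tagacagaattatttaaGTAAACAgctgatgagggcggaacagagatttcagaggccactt
Txnip (chr3:96557814-96557874, plus strand): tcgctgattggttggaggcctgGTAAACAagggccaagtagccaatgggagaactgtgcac
Pot1a (chr6:25809284-25809344, minus strand): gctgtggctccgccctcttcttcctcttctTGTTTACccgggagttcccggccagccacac
Mon1a (chr9:107887922-107887982, plus strand): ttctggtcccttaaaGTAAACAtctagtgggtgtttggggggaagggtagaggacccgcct
Txnl4b (chr8:109565807-109565867, plus strand): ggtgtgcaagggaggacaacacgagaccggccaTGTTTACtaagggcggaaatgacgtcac
Ndrg2 (chr14:51914127-51914187, minus strand): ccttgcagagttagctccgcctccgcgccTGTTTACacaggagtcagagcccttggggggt
Casp4 (chr9:5308618-5308678, plus strand): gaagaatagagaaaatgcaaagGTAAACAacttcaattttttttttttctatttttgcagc
Nme6 (chr9:109832617-109832677, plus strand): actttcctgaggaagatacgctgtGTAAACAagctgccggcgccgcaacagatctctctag
Nfatc3 (chr8:106058625-106058685, plus strand): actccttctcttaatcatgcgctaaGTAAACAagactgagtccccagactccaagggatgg
Nfatc2 (chr2:168601823-168601883, minus strand): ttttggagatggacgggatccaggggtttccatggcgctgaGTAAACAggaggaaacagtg

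In these stretches the middle of the nearest forkhead match lay between 1.5 and 14 bases from the summit. The fold of a peak is its enrichment over background, a value of the authors, and it ranged from 12.3 at Yipf4 to 6.86 at Nfatc2. Txnip, which encodes an inhibitor of thioredoxin and of glucose uptake, had a fold of 11.7 with the match 4.5 bases from the summit. Pot1a, a telomere-binding protein gene, had a fold of 10.3, and Mon1a, a gene of vesicle traffic, one of 9.81. Txnl4b had a fold of 8.84, Ndrg2 one of 8.54 and Casp4, which encodes an inflammatory caspase, one of 8.23. Nme6, a nucleoside diphosphate kinase gene, had a fold of 8.10 and Nfatc3, which encodes a calcium-regulated transcription factor as Nfatc2 does, one of 7.5.

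Weaker peaks showed the same arrangement at regulators that a reader may know, and 3 of these promoters, also picked after their sequences were seen, are printed for that reason. Akt1 encodes a kinase that acts downstream of insulin and growth factors, Bcl2l11 encodes the death-promoting protein Bim, and Rxrb encodes a retinoid X receptor.
Akt1 (chr12:112675026-112675086, minus strand): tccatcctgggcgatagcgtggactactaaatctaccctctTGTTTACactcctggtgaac
Bcl2l11 (chr2:128125795-128125855, plus strand): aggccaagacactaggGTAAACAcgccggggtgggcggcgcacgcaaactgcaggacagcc
Rxrb (chr17:34032276-34032336, plus strand): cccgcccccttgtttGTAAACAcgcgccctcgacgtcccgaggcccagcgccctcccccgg

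Their folds were 5.54 for Akt1, 4.50 for Bcl2l11 and 3.86 for Rxrb, and the matches lay 13.5, 10.5 and 11.5 bases from the summit. These folds lie near or under the median of 5.06 over all 451 peaks, so matches close to the summit were also found at weak peaks. The table's start for Rxrb lies inside the gene span, as for other genes with several starts, so that its summit was 493 bp from the end of the span but 44 bases from the listed start.

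Counted over all 98 windows, the forkhead core TAAACA was present in 39 (39.8%, exact Clopper-Pearson 95% interval 30 to 50.2%), against 11.5% of all 21263 promoter windows of protein-coding genes. Both strands were searched. The longer form TGTTTAC, which contains the core, was in 31 windows (31.6%, exact interval 22.6 to 41.8%), against 3.01% of all windows. The form GTAAATA, which some forkhead factors also bind, was in 15 windows (15.3%, exact interval 8.83 to 24%), against 2.59%. The form TGTTTGC was in 5 windows (5.10%), close to the 4.58% of all windows. At least 1 of the 4 forms was in 56 of 98 windows (57.1%), against 17.2% of all. The other windows held none of these letters, which says only that the letters are not in those windows.

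Windows at members' genes that did not hold the summit had fewer matches. For 180 members whose nearest end was a gene start but whose summit lay outside the listed window, the window held the core in 15 (8.33%, exact interval 4.74 to 13.4%) and TGTTTAC in 4 (2.22%). At Foxc2-only peaks, 21 of 499 windows with the summit held the core (4.21%, exact interval 2.62 to 6.36%) and 8 held TGTTTAC (1.60%). Foxc1 peaks overlapped by a Foxc2 peak had the core in 21 of 42 windows (50%, exact interval 34.2 to 65.8%) and TGTTTAC in 15 (35.7%). The form GTAAATA was in 1 of those 42 (2.38%, exact interval 0.0603 to 12.6%) and in 3 of the 499 Foxc2-only windows (0.601%), against 15.3% in the members' windows. For the core, the exact intervals of the members and of the Foxc2-only windows do not overlap, and no test was made on motif counts. For GTAAATA, the exact interval of the members (8.83 to 24%) overlaps that of the windows at peaks of both antibodies. Base composition differed between some of these sets, though not in the order of the core shares: the median GC content was 57% in the members' windows and 56.3% in all windows. It was 70% in the Foxc2-only windows and 66.5% in the windows of Foxc1 peaks overlapped by a Foxc2 peak. Among windows of 50 to 65% GC, a range chosen after seeing the data, the core was in 24 of 63 members' windows (38.1%), 13 of 123 Foxc2-only windows (10.6%) and 8.68% of all windows. In that range GTAAATA was in 10 of 63 members' windows (15.9%), 1 of 123 Foxc2-only windows (0.813%) and 1.43% of all windows. Windows of peaks of both antibodies were not counted in that range.

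**Figure D1:**
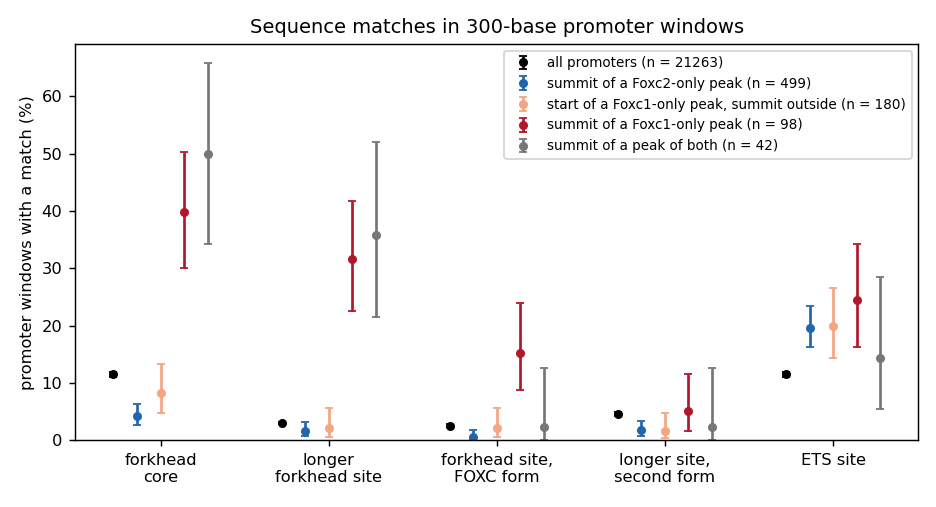
Share of 300-base promoter windows (vertical axis, %) that hold a forkhead core, a longer forkhead site, the FOXC form, a second longer form or an ETS site, on either strand, for 5 sets of windows with exact 95% intervals. The core was in 39.8% of windows with the summit of a Foxc1-only peak, 4.21% of those with a Foxc2-only summit and 11.5% of all windows.

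Where a core was present, its distance to the summit differed between the lists. In the 39 members' windows the median distance was 9.5 bases (quartiles 4 and 17), and 34 had a core within 50 bases. In the 21 windows at Foxc2-only summits the median was 93.5 bases (quartiles 43.5 and 176.5), and 7 had one within 50 bases. Over all windows with a summit, a core within 50 bases was thus found in 34.7% at Foxc1-only peaks (exact interval 25.4 to 45%) and 1.40% at Foxc2-only peaks (exact interval 0.566 to 2.87%). In the 21 windows at Foxc1 peaks that Foxc2 overlapped, the median was 10.5 bases. The members' folds were alike with and without a core, with medians of 5.54 (39 peaks, 3 to 23.7) and 5.06 (59 peaks, 3.01 to 17.1).

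**Figure D2:**
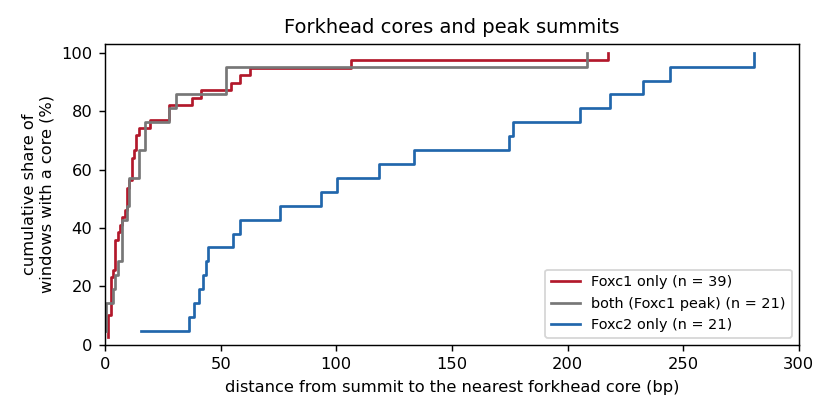
Cumulative share of windows with a forkhead core (vertical axis, %) against the distance from the peak summit to the nearest core (horizontal axis, bases), for peaks of Foxc1 alone, of both antibodies and of Foxc2 alone. The curves of the Foxc1 list rise close to the summit, with medians of 9.5 and 10.5, whereas the Foxc2-only curve has its median at 93.5.

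The 6 strongest promoter peaks had no match to the 4 forkhead forms in the 30 bases around the summit. They are printed as a contrast, on the gene's strand, clipped at the gene start where the summit lay close to it, with matches to the ETS family site CCGGAAG, or its reverse complement CTTCCGG, in capitals.
Tbc1d15 (chr10:115251494-115251531, minus strand): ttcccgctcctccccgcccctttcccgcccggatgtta
Aldh6a1 (chr12:84451148-84451208, minus strand): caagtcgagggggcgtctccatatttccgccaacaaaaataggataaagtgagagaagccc
Wdr48 (chr9:119894874-119894894, plus strand): tctcCCGGAAGtgacgtcgga
Cdc123 (chr2:5845184-5845244, minus strand): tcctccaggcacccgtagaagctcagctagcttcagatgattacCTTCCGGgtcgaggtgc
C5ar2 (chr7:16244250-16244310, minus strand): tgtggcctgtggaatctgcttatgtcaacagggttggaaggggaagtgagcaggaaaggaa
Zfp945 (chr17:22867135-22867164, minus strand): agaaaacaagcgtgagtgacaggaaattcc

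Their folds were 23.7 for Tbc1d15, 17.1 for Aldh6a1, 16.2 for Wdr48, 14.8 for Cdc123, 14.7 for C5ar2 and 12.8 for Zfp945. Of the 6, Tbc1d15 alone had a forkhead core in its window, outside the stretch shown. Among the 11 windows at members of fold 10 or more, 4 held the core and 6 held the ETS site (54.5%, exact interval 23.4 to 83.3%), against 11.6% of all windows. Among the 87 at weaker members, 35 held the core (40.2%) and 18 the ETS site (20.7%, exact interval 12.7 to 30.7%). The ETS site was in 19.6% of the Foxc2-only windows and in 20% of the members' windows without the summit, and its median distance to the summit was 52.5 bases in the members' windows. With 11 strong windows, the intervals of strong and weak members overlap.

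Other promoter elements were above or below the level of all windows by varying amounts. The CCAAT box, written CCAAT, was in 41.8% of the members' windows and 38.2% of all. The GC box GGGCGG was in 59.2% of the members' windows, 46.2% of all and 89.2% of the Foxc2-only windows. The TATA box TATAAA was in 10.2% against 12.6%, and the TEAD site GGAATG in 10.2% against 13.6%. AP-1 sites (TGANTCA) were in 2 of 98 windows (2.04%, exact interval 0.248 to 7.18%), against 6.99% of all and 2.81% of the Foxc2-only windows. The E-box CACGTG was in 12.2% against 7.84% of all, the CRE TGACGTCA in 4.08% against 2.23% and the ZBTB33 site TCTCGCGA in 4.08% against 1.41%. At Foxc2-only summits these 3 were in 11.8, 4.21 and 3.21% of windows. The NRF1 element GCGCATGC was in 4.08% against 3.52% of all, and the YY1 site AAGATGGC in 5.10% against 3.05%.

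Foxc1-only peaks at gene ends lay at both ends of genes, whereas Foxc2-only peaks lay almost wholly at starts. Strand was taken from the RefSeq promoter table, which covered 17492 of 21887 protein-coding genes and none on chromosome 18. Of the 362 members whose nearest gene had a strand, 276 were nearest to a start (76.2%, exact interval 71.5 to 80.5%) and 86 to a stop. Of the 1391 Foxc2-only peaks at gene ends, 1134 had a nearest gene of known strand, and 1106 of these were nearest to a start (97.5%, exact interval 96.5 to 98.4%) and 28 to a stop. The difference passed Fisher's exact test (two-sided, odds ratio 0.0812, p = 1.60e-33, adjusted p = 9.60e-33 over 6 such tests). Of the 114 peaks of both antibodies, 94 had a nearest gene of known strand, and 91 of these were nearest to a start (96.8%), which also differed from the members (odds ratio 0.106, Fisher's exact adjusted p = 1.06e-06). Members are the Foxc1 peaks left after those with Foxc2 were removed, so the share over all Foxc1 peaks at gene ends is the value that does not rest on this removal, and it was 80.5% (367 of 456). The share of starts varied little with strength, from 70.5 to 78.6% over 4 groups of members by fold.

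**Figure D3:**
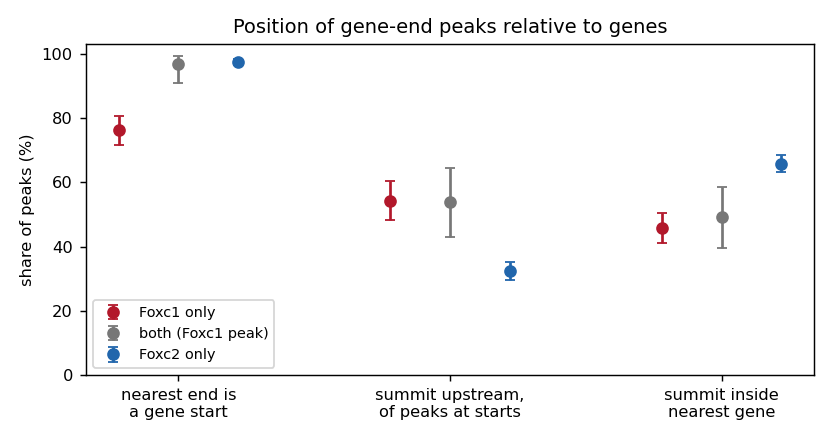
Share of gene-end peaks (vertical axis, %) whose nearest end is a gene start, whose summit lies upstream (of peaks at starts) and whose summit lies inside the nearest gene, with exact 95% intervals, for peaks of Foxc1 alone, of both antibodies and of Foxc2 alone. Starts made up 76.2% for Foxc1 alone and 97.5% for Foxc2 alone.

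At gene starts, the members' summits lay on both sides of the start. The median position was 37.5 bp upstream, and 150 of 276 lay upstream (54.3%, exact interval 48.3 to 60.3%). Foxc2-only summits had their median 102 bp downstream, and 359 of 1106 lay upstream (32.5%, exact interval 29.7 to 35.3%). In the first 250 bp downstream lay 13.8% of the members at starts and 39.9% of the Foxc2-only peaks, and 500 bp or more downstream 24.3 and 11.5%. Counted over all gene ends, the summit was inside the nearest gene for 206 of 451 members (45.7%, exact interval 41 to 50.4%) and for 916 of 1391 Foxc2-only peaks (65.9%). That difference passed Fisher's exact test (odds ratio 0.436, adjusted p = 1.38e-13). Against peaks of both antibodies (56 of 114, 49.1%) the test was not passed (odds ratio 0.871, Fisher's exact adjusted p = 0.558), and over all Foxc1 peaks at gene ends the share was 46.4%.

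**Figure D4:**
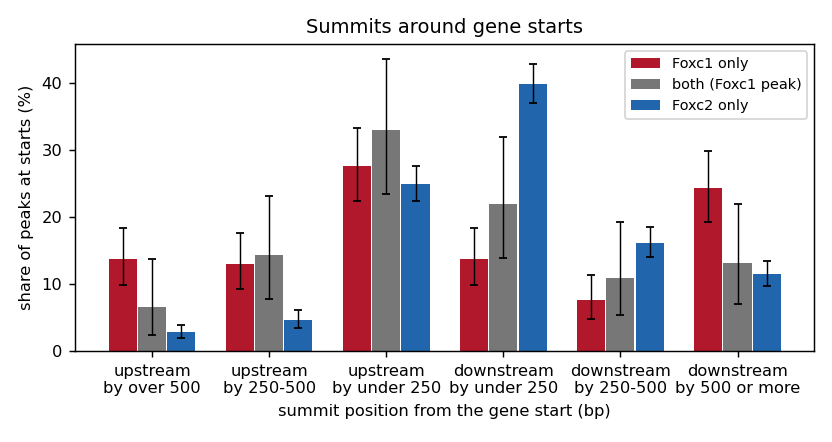
Summit position relative to the gene start (horizontal axis, bp, in 6 bins, the outermost wider than the others) against the share of peaks at starts (vertical axis, %), with exact 95% intervals. In the bin under 250 bp downstream lie 13.8% of Foxc1-only and 39.9% of Foxc2-only peaks.

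The 86 peaks at stop ends were about as strong as those at starts. Their median fold was 4.75 (quartiles 4.26 and 6.45), against 5.06 at starts (quartiles 4.11 and 6.86). Of the 86, 42 had the summit beyond the gene and 44 within it, and 7 also lay within 1 kb of a listed start of some gene. The member of highest fold was of this kind: a peak of fold 36.5 at the stop end of Rassf6, which encodes a Ras-association protein (chromosome 5, 90603156 to 90603771), 357 bp inside the gene, with the nearest Foxc2 peak 236334 bp away. Cnksr3 followed with a fold of 14.4 at 475 bp, Aldh3b1 with 14.2 at 247 bp, Spata4 with 13.3 at 544 bp and Ptbp1, which encodes a splicing repressor, with 11.4 at 158 bp. The Aldh3b1 peak was also 470 bp from the start of Ndufs8, a subunit gene of respiratory complex I. Sequences of stop ends were not used here.

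Fold enrichment ranged from 2.40 to 36.5 over the 451 peaks, with quartiles of 4.11 and 6.87. A fold of 10 or more was reached by 47 members (10.4%, exact interval 7.76 to 13.6%) and by 415 of 4329 Foxc1-only peaks elsewhere (9.59%). No difference was detected (odds ratio 1.10, Fisher's exact p = 0.558, adjusted p = 0.558), and with a distance of 2 kb in place of 1 kb the order turned, at 9.29 against 9.73%. Median widths were 336 and 326 bp.

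**Figure D5:**
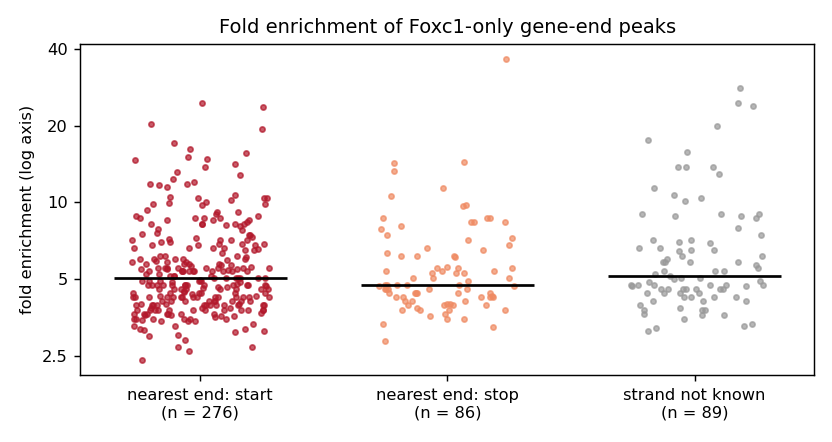
Fold enrichment over local background (vertical log axis) of each of the 451 peaks, by the kind of nearest gene end, with horizontal lines at the medians. The medians are 5.06 at starts, 4.75 at stops and 5.14 where the strand is not known, and the highest point is the peak of fold 36.5 at Rassf6.

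After Rassf6, the strongest members spanned genes of varied function. H2-T24, a nonclassical class I histocompatibility gene, had a peak of fold 28.2 with the summit 12 bp from an end (chromosome 17, 36020457 to 36021158). Class I genes have near-identical copies, so reads there may be shared between them. Tmem259 had a fold of 24.6 at 672 bp, and the summit also lay within 1 kb of the small nuclear RNA gene Gm26243. Tmc1, which encodes a channel of inner ear hair cells, had 24.5 at 404 bp. Gsdmd and Ninj1 encode proteins that perforate and rupture the membrane of dying cells, and their peaks had folds of 23.9 at 351 bp and 20.3 at 888 bp. Foxc2 peaks lay 319 bp from the Tmem259 peak and 332 bp from the Ninj1 peak. Tbc1d15, a regulator of Rab GTPases, had 23.7 at 7 bp from its start.

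Transcriptional regulators were among the same 15 peaks. Per1, a repressor of the circadian clock that glucocorticoids induce, had a peak of fold 19.5 with the summit 233 bp upstream of its start (chromosome 11, 69094557 to 69095143), and a Foxc2 peak of fold 5.33 lay 1672 bp away. Tbx3, a T-box factor gene, had 17.6 at 259 bp. Of the others, A530016L24Rik had 19.9, Aldh6a1, which encodes a mitochondrial dehydrogenase of valine breakdown, 17.1, Wdr48, a cofactor gene of deubiquitinases, 16.2, Trim14 15.8, Cog3, a Golgi tethering gene, 15.6 and Fam166b 15. The 3 weakest members lay at Vsig10 (2.70), Tasor (2.60) and Atxn7l1 (2.40).

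In all, 519 of 21887 protein-coding genes (2.37%) had an end within 1 kb of a member, and 1522 (6.95%) an end within 1 kb of a Foxc2-only peak. The rule fixes these counts, so the gene lists below are given beside them as descriptions, without a test. Of 25 lists, chosen with earlier results of these data known, 4 had no gene with a member. Over the 825 genes of all lists, 42 had a member (5.09%) and 146 a Foxc2-only peak (17.7%).

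For genes of the podocyte and its filtration barrier, the shares with a Foxc1-only peak lay around the 2.37% of all protein-coding genes, from 0 to 4.35% per list. Of 46 podocyte markers, 2 had one (4.35%) and 23 had a Foxc2-only peak. The 2 were Pard3b, a cell polarity gene (fold 7.21, 522 bp from its start), and Thsd7a, a podocyte membrane protein and autoantigen (4.27, 466 bp), and both also had a Foxc2-only peak at an end, 425 and 94 bp from the Foxc1 peak. Of 32 slit diaphragm and podocyte cytoskeleton genes none had a member and 8 had a Foxc2-only peak, and of 26 genes of the glomerular basement membrane and its receptors the counts were 0 and 8. The actin and focal adhesion list gave 1 and 10 of 40, the member being Vasp (6.11, at its stop end). Of 53 genes of hereditary nephrotic syndrome, Wdr73 alone had members, against 8 with a Foxc2-only peak.

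Transcription factors of podocyte and kidney gave 5 of 31 (16.1%), against 9 with Foxc2-only peaks (29%). Foxd1, a forkhead gene of the kidney stroma and podocyte lineage, had the strongest, of fold 9.65 at 228 bp from its stop end, and a Foxc2-only peak at another place near an end. The gene Foxc1 itself had a peak of fold 4.72 at 186 bp from its stop end, and it too had a Foxc2-only peak at an end. Zhx3 (5.84), the Notch target Hes1 (4.11) and Klf6 (3.80) completed the list. The forkhead family gave 3 of 43, adding Foxl1 (4.27, 8 bp from an end), against 8 with Foxc2-only peaks.

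Lists of other glomerular and tubular cells gave small counts. Mesangial and pericyte genes gave 3 of 28 (10.7%), against 2.37% of all protein-coding genes and 5.09% of the genes of all lists. None of the 28 had a Foxc2-only peak, against 6.95% of all protein-coding genes. The 3 with a member were Pdgfra, a growth factor receptor gene (8.54), Gata3, a transcription factor of mesangial cells (3.96), and Rgs5, a pericyte regulator of G-protein signalling (3.48, 211 bp from its start). The Pdgfra summit was 974 bp from the end of the gene span but 46 bases from the listed start. The Rgs5 window held the forkhead core, 7.5 bases from the summit. Glomerular endothelium gave 1 and 1 of 30, with Nrp1, a VEGF co-receptor gene (4.57, 106 bp). Proximal tubule gave 1 and 0 of 32, with Slc34a3 (3.96), the distal nephron 0 and 1 of 26, and immune cells 0 and 0 of 26.

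In the signalling lists, TGF-beta and BMP genes gave 2 of 37 (Bmp6 at 5.38 and Id3 at 4.90), against 13 with Foxc2-only peaks. Hippo genes gave 1 of 27 against 10, the one being Ccn2, a matrix-associated growth factor gene, with a fold of 10.1 at 914 bp. Notch genes gave 2 of 28 (Notch4 at 6.49, and Hes1) against 4. Immediate early and stress genes gave 5 of 42 (11.9%) against 15 (35.7%): Txnip (11.7), Zfp36l1 (7.44), Ier2 (7.14), Btg2 (4.11) and Klf6. Circadian and steroid response genes gave 2 of 29 against 3, namely Per1 (19.5) and Rxrb (3.86).

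Genes of basic cell functions were spread over many lists. Housekeeping genes gave 1 of 28 against 2, and cytosolic ribosomal proteins 2 of 42 against 6, with Rplp0 (7.76, 80 bp) in both and Rpl26 (3.43). Ribosomal protein genes have many processed pseudogenes that can share reads with their transcribed part, but the Rplp0 summit lay upstream of its listed start. Oxidative phosphorylation gave 2 of 41 against 1, with Ndufs8 (14.2) and Coq9 (3.57). Splicing gave 3 of 40 against 16, with Sf3a3 (6.64), Ddx17 (4.90) and Prpf19 (3.64), and the proteasome and ubiquitin list 1 of 40 against 4, with Psmb1 (5.38). Chromatin regulators gave 3 of 45 against 10, with Kmt2d (4.59), Arid1b (4.11) and Tet2 (3.29). The cell cycle gave 3 of 40 against 5, with Ccne2 (7.44), Trp53 (5.50) and Ccnd3 (4.27), and vesicle traffic and autophagy 3 of 48 against 8, with Atg12 (7.0), Becn1 (4.43) and Gabarap (3.80). The Atg12 peak was 360 bp from an end of Atg12 but nearer to an end of Ap3s1.

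Some members sat close to a Foxc2 peak without touching it. A Foxc2 peak lay within 10 kb of 77 members (17.1%, exact interval 13.7 to 20.9%) and of 390 of 4329 Foxc1-only peaks elsewhere (9.01%). Members were chosen by their lack of a Foxc2 overlap and by lying at gene ends, where 1391 of the 2878 Foxc2 peaks lay without a Foxc1 peak, so these shares are a description and nothing is read from their difference. Of those 77, 34 had it within 500 bp. When Foxc2 peaks within 500 bp were counted as shared, 10.3 and 8.40% had one within 10 kb. The smallest gap was 1 bp, at the start of Hivep1, between a Foxc1 peak of fold 3.96 and a Foxc2 peak of fold 6.29. Metrnl followed with 4 bp, Phlda1 with 44 bp, Ehmt1, a histone methyltransferase gene, with 46 bp and Dcaf6 with 51 bp. Over all members, the median gap to a Foxc2 peak was 116610 bp. In terms of genes, 68 had both a member and a Foxc2-only peak at an end, 13.1% of genes with a member and 4.47% of genes with a Foxc2-only peak. Of all 21887 protein-coding genes, 6.95% had a Foxc2-only peak at an end and 2.37% a member. No test was made on these shares of genes.

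Because gene ends can lie close together, 72 of the 451 peaks (16%) were within 1 kb of the ends of several genes. Of all members, 40 (8.87%) were within 1 kb of starts on both strands, a share near the 8.84% of Foxc2-only peaks. The strongest of these divergent pairs were Aldh6a1 and Lin52 (fold 17.1), Cdc123 and Nudt5 (14.8), Ubxn6 and Hdgfl2 (12) and Mrpl34 and Abhd8 (10.4). Among genes, 4 had 2 members. Tspan13 had 1 at each end (9.81 at the stop, 3.48 at the start), Ier2 had 7.14 and 4.57, Wdr73 5.14 and 4.90, and Rpl27a 3.80 and 3.57.

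At the 1 kb limit, the outermost members were at Rai14 (991 bp, fold 4.75), Pde9a (990 bp, 4.11) and Erlin1 (987 bp, 6.49). The nearest Foxc1-only peaks left out were at Mgst2 and Pdcd2 (both 1004 bp, folds 5.06 and 4.43) and Pias1 (1005 bp, 4.90).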

How the data were processed

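ChIP-seq peaks of glomeruli were analysed from 1 list for Foxc1 and 1 for Foxc2. The submitters' processing notes name Bowtie2, MACS2 and mm10, without versions. For the calling settings, the control and any pooling, nothing was given in the sources used here. The deposited fold enrichment is a ratio to local background, and the deposited p-values and q-values are −log10 values. The deposited score was not used. Fold was compared only within a list.

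Of 5213 Foxc1 peaks, 6 on other sequences were left out. The summit is the peak start plus the deposited offset. Gene spans came from RefSeq (GRCm38.p6), strand and sequence from its promoter table, which lists 423 of the 519 genes with a member. Shares of peaks were compared by Fisher's exact test, two-sided, with Benjamini-Hochberg adjustment over 6 tests and a threshold of 0.05, in SciPy 1.17.1 (Python 3.11.15). The test on Foxc2 peaks within 10 kb is among the 6 but is not reported, because the choice of members bears on it. The 15 motifs were searched on both strands as letters. The rules were tested on simulated data. Named were the 15 strongest and 3 weakest members, up to 5 members per gene list, those at the distance limit, the 5 nearest to Foxc2 peaks, genes with several members and the strongest promoter peaks; other names were chosen after their values were seen. The members, lists and tests were chosen with earlier results of these data known. In the lists, 1 name was not found among the RefSeq genes and 3 were matched through older symbols. The peaks are not replicates, so no test speaks of other animals. The alternatives covered the distance, thresholds on the Foxc1 peaks, the definition of a shared peak, the gene set and the GC range. Foxc2 peaks were not filtered by strength in any of them, so a comparison with the stronger Foxc2 peaks was not made.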

Additional observations from a re-analysis of the deposited data

How the results depend on the processing

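Of 51 alternative values, 43 kept their direction and side of the threshold, or stayed close to the value reported. The share of starts lay between 72.6 and 77.7%, the share of summits inside the nearest gene between 40.9 and 46.9% and the share of promoters with a forkhead core between 38.1 and 45.5%; all alternatives run for these 3 shares kept the result, including the restriction of windows to 50 to 65% GC, which was chosen after seeing the data. Counts changed by construction: with a limit of 0.5 kb there were 281 peaks and 308 genes, with 2 kb 678 peaks and 790 genes, and with a fold of 5 or more 227 peaks and 253 genes. The share of fold 10 or more turned below that of other Foxc1-only peaks at 2 kb, at 9.29 against 9.73% (Fisher's exact adjusted p = 0.779); the cause was not tested. The share with a Foxc2 peak within 10 kb was 10.3% when Foxc2 peaks within 500 bp counted as shared, a setting that removes 34 members; it is a description. No paired analysis was possible because each antibody has 1 library. Peak lists hold no read counts, so Foxc2 signal under the calling threshold at these sites was not measured.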

Other observations

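The X chromosome held 3 of 451 members (0.665%), with 4.41% of protein-coding genes, and 0.0719% of Foxc2-only peaks at gene ends lay there. Chromosome 11 held the most, 45 members (9.98%), with 7.35% of genes, and chromosome 17 held 33 (7.32%), with 4.84%. The Y chromosome held none. No test was made on these shares.

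Noncoding genes near members were mostly long noncoding RNAs. A summit lay in or within 1 kb of one for 65 members (14.4%), against 16.8% of Foxc2-only peaks at gene ends and 13.4% of Foxc1-only peaks elsewhere. Small nuclear RNA genes were near 4 members, among them the peak of fold 24.6 at Tmem259, against 1 of 1391 Foxc2-only peaks at gene ends and 7 of 4329 Foxc1-only peaks elsewhere. MicroRNA genes were near 3 members (0.665%), at Fam53c, Tbc1d17 and Nrp1, against 7 Foxc2-only peaks at gene ends (0.503%) and 0 Foxc1-only peaks elsewhere. Transfer RNA genes were near 1 member (0.222%), at Mrpl58, against 5 (0.359%) and 8 (0.185%). These counts were not tested.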
